A study of Mus musculus with 9 samples.

Results

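Pou2f1, Pou2f2 and Pou2af1 encode OCT1, OCT2 and OBF1, and they were followed in an Eµ-Myc mouse lymphoma after 2 h of BET bromodomain inhibition. The 3 genes were taken by symbol from the 43629 genes of the count table. The cells were Eµ-Myc lymphoma clone 4242, a B-lineage tumour line from mice in which the immunoglobulin heavy chain enhancer drives a Myc transgene, so that all groups carry the transgene and all come from 1 clone. There were 3 libraries of cells given 2.5 µM RG6146, 3 given 1 µM JQ1 and 3 given DMSO, the solvent, each for 2 h and labelled as biological triplicates. RG6146 and JQ1 are both BET bromodomain inhibitors, and their doses differ, so the compounds were compared at these doses only. Messenger RNA was counted near its 3′ end with QuantSeq, a method primed on the poly(A) tail, so that long transcripts do not gain counts by their length.

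OCT1 and OCT2 are POU domain transcription factors that bind the octamer, ATGCAAAT or its reverse complement, through a POU-specific domain and a homeodomain joined by a linker. OCT1 is present in most cell types and acts at histone H2B and small nuclear RNA genes, while OCT2 is mostly found in B cells and neurons. OBF1, also called OCA-B or BOB.1, is a B-cell coactivator that has no stable hold on DNA of its own and clamps the POU domains of OCT1 or OCT2 on the octamer, where it serves immunoglobulin and other B-cell promoters and germinal centre formation.

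Total gene counts lay between 3410161 and 5031717 per library, and ERCC spike-in RNAs took 0.958% to 1.51% of counts in each library. After the filter on low counts 11002 genes were tested with edgeR's quasi-likelihood test, and calls were made where the p-value, adjusted over them all by Benjamini and Hochberg's method, was below 0.05. Levels are in CPM, counts relative to the library total after TMM scaling. The summed level of 12 B-cell markers was 930.1 to 1052 CPM in RG6146 libraries, 951 to 998 CPM in JQ1 libraries and 1184 to 1348 CPM in DMSO libraries. That of 6 plasma cell markers was 21.7 to 25.6 CPM in RG6146 libraries, 23.4 to 25.5 CPM in JQ1 libraries and 46.6 to 56.8 CPM in DMSO libraries. Of the 3 plasma cell markers tested, Slamf7 had log2 fold changes of -2.67 with RG6146 and -2.33 with JQ1. Sdc1 had -0.17 and 0.17, not called. Xbp1 had -0.30, not called, and -0.48, a JQ1 call that ended in 7 of 17 alternative settings. Among the 11 B-cell markers tested, 6 were called lower with RG6146 and 5 with JQ1, beside 13.5% and 15.4% of all genes, and 0 higher. Ighm had 0.14 and 0.15 and Cd79a -0.15 and -0.12, not called. The B-cell sum includes Cd22, Cd79b, Ebf1 and Blnk, which are also described singly below. Both sums were lower in every treated library, as the members were, and their part in the members' results was not tested. Of 12 T and NK cell markers 9 had at most 3 counts in all libraries together, with Trac and Ncr1 at 0. In bulk RNA, fewer cells of a type and less RNA per cell cannot be told apart.

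All 3 genes were lower with either compound, Pou2f1 and Pou2f2 with log2 fold changes of -1.33 or below and Pou2af1 with -0.46 and -0.41. The call rate over all tested genes was 26.0% for RG6146 against DMSO and 28.9% for JQ1 against DMSO, and calls of lower genes alone made up 13.5% and 15.4%. Both comparisons use the same 3 DMSO libraries, so they are not independent of each other. The plot of levels by library shows the treated libraries of each gene below its DMSO libraries.

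**Figure D1:**
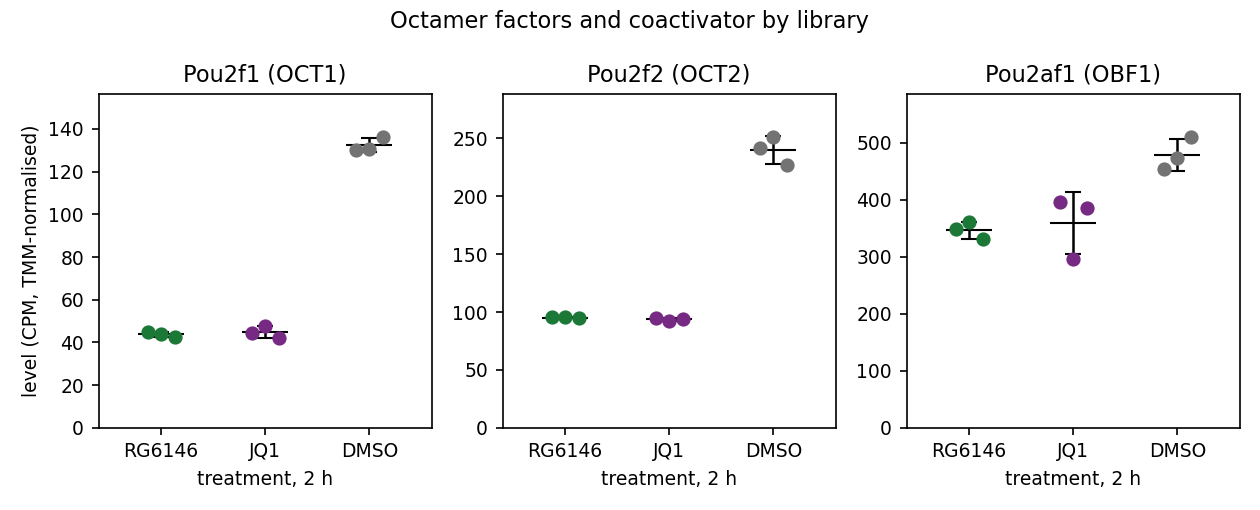
Levels of Pou2f1, Pou2f2 and Pou2af1 in CPM (y axis, from 0, TMM-scaled) in RG6146, JQ1 and DMSO libraries (x axis), 1 point per library, with the mean as a bar and the SD as whiskers (n = 3 each). For Pou2f1 the 6 treated libraries sit between 42.1 and 47.6 CPM and the DMSO libraries between 130.3 and 136 CPM; for Pou2af1 the gap is much narrower.

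Pou2f1, the gene of OCT1 (ENSMUSG00000026565), lies on the reverse strand of chr1 from 165865154 to 166002678 in mm10 and has 18 annotated transcripts with 14 distinct ends. RefSeq gives it 3 promoter windows of 250 bases before to 50 bases after a start in GRCm38.p6, and the outermost, chr1:166002585-166002884 on the reverse strand, is shown because it lies at the far 5′ end of the annotated gene. Its capitals mark GC boxes (GGGCGG or CCGCCC, in 35.7% of all 32851 promoter windows).
Pou2f1 promoter window: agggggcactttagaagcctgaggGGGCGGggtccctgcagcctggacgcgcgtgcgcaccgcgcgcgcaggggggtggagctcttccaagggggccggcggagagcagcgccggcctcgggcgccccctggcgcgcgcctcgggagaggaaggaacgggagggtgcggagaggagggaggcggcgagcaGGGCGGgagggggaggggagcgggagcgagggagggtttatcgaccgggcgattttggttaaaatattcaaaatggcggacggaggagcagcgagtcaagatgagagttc
None of the 3 windows holds the octamer.

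Pou2f1 stood at 44.9, 44.0 and 42.7 CPM in RG6146 libraries, at 44.6, 47.6 and 42.1 CPM in JQ1 libraries, and at 130.3, 130.8 and 136 CPM in DMSO libraries. The RG6146 and JQ1 libraries interleaved, and none came near the lowest DMSO library. These levels rest on 161 to 212 counts in each treated library and 460 to 693 in each DMSO library. Pou2f1 fell to 33.2% of its DMSO level with RG6146, a log2 fold change of -1.59 ± 0.09 (SE, edgeR, adjusted p 6.25e-10), and to 33.8% with JQ1, a log2 fold change of -1.56 ± 0.09 (SE, edgeR, adjusted p 6.32e-10). Among the 11002 genes only 246 had a lower log2 fold change with RG6146 and 262 with JQ1, or 2.24% and 2.38% of those tested.

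The 3′ end of Pou2f1 runs into Cd247, the T-cell receptor zeta chain gene on the opposite strand, over 12124 bases of which 3007 are exonic in both. Of the 14 Pou2f1 transcript ends 8 lie inside Cd247, and of the 7 Cd247 ends 5 lie inside Pou2f1. The strand setting of the counting is not given in the sources used here, so reads of these genes may not have been kept apart. Cd247 stood at 6.38, 5.31 and 4.32 CPM in RG6146 libraries, at 5.47, 8.57 and 4.97 CPM in JQ1 libraries, and at 17.9, 18.8 and 16.8 CPM in DMSO libraries. It fell as Pou2f1 did, by 1.73 ± 0.22 with RG6146 and by 1.48 ± 0.22 with JQ1 on the log2 scale (SE, edgeR, adjusted p 1.5e-05 and 5.31e-05). Among the 12 T and NK cell markers 9 had at most 3 counts in all libraries together, and Nkg7 and Gzma had more. With Cd247 included, the 12 summed to 6.83 to 8.44 CPM in RG6146 libraries and 5.75 to 13.8 CPM in JQ1 libraries. In DMSO libraries they summed to 18.9 to 21.3 CPM. Whether the Cd247 counts come from Pou2f1 transcripts was not tested.

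Other genes around Pou2f1 moved in both directions. Rcsd1, for a protein that binds the actin capping protein CapZ, was called lower with RG6146 and JQ1 (log2 fold changes of -1.33 and -1.42), while Mpzl1, for a cell surface glycoprotein that recruits the phosphatase SHP2, was called higher (2.88 and 3.02) from only 3 counts in each DMSO library. Creg1, for a lysosomal glycoprotein, was called higher by 0.27 and 0.35, and those calls ended in 5 of 17 alternative settings with RG6146 and in 2 of 17 with JQ1.

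Pou2f2, the gene of OCT2 (ENSMUSG00000008496), lies on the reverse strand of chr7 from 25087344 to 25179726 in mm10, with 10 transcripts and 7 distinct ends. Its RefSeq window, chr7:25132411-25132710 on the reverse strand in GRCm38.p6, belongs to a start at 25132460 inside the annotated gene. Capitals mark GC boxes and 1 ETS site (CCGGAAG or CTTCCGG, in 8.86% of windows), and the window holds no octamer.
Pou2f2 promoter window: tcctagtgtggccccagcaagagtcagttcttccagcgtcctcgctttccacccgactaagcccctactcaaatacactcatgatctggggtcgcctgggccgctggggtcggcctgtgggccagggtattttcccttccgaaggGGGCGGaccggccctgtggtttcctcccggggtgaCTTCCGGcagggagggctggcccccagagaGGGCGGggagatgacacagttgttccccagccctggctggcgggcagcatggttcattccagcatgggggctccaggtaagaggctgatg

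Pou2f2 stood at 95.3, 95.7 and 94.5 CPM in RG6146 libraries, at 94.5, 91.9 and 94.4 CPM in JQ1 libraries, and at 242, 251 and 227 CPM in DMSO libraries. The treated libraries lay within a few CPM of each other and far below every DMSO library. Pou2f2 fell to 39.7% of its DMSO level with RG6146, a log2 fold change of -1.33 ± 0.08 (SE, edgeR, adjusted p 8.97e-10), and to 39.0% with JQ1, a log2 fold change of -1.36 ± 0.08 (SE, edgeR, adjusted p 6.32e-10). Mir6537 and D930028M14Rik, which overlap Pou2f2, were under the count filter. By log2 fold change 387 genes were lower with RG6146 and 370 with JQ1. Of its neighbours, Zfp574, a zinc finger gene 3852 bases away, had log2 fold changes of 0.28 and 0.33 (edgeR, adjusted p 0.179 and 0.108). Gsk3a, for glycogen synthase kinase 3 alpha, had 0.08 and 0.06 (adjusted p 0.741 and 0.82). Dedd2, for a death effector domain protein, was called higher with RG6146 (0.91, adjusted p 0.0355), a call that 9 of 16 alternative settings ended, and had 0.65 with JQ1 (adjusted p 0.134).

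Pou2af1, the gene of OBF1 (ENSMUSG00000032053), lies on the forward strand of chr9 from 51213708 to 51240080 in mm10, with 2 transcripts. Its RefSeq window is chr9:51213440-51213739 on the forward strand in GRCm38.p6. It has no complete octamer. The capitals mark the last 7 octamer bases, TGCAAAT or ATTTGCA, which 4.02% of windows hold and which were searched for after the window had been read, and the core of a cyclic AMP response element (TGACG or CGTCA, in 20.8% of windows).
Pou2af1 promoter window: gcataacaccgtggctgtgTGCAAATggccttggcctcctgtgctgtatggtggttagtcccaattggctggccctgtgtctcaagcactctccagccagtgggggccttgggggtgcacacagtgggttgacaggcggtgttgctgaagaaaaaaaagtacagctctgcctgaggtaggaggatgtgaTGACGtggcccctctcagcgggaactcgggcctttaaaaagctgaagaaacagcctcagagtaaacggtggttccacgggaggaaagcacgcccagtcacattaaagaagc

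Pou2af1 stood at 348, 361 and 331 CPM in RG6146 libraries, at 396, 296 and 385 CPM in JQ1 libraries, and at 453, 473 and 509.7 CPM in DMSO libraries. All treated libraries lay below all DMSO libraries, a separation that 40.9% of tested genes showed with RG6146 and 42.6% with JQ1 in one direction or the other. JQ1 replicate 2 was the lowest of all 9 libraries. Pou2af1 fell to 72.5% of its DMSO level with RG6146, a log2 fold change of -0.46 ± 0.10 (SE, edgeR, adjusted p 0.00169), and to 75.1% with JQ1, a log2 fold change of -0.41 ± 0.10 (SE, edgeR, adjusted p 0.00356). That is a smaller fall than the median over all genes called lower, -0.75 with RG6146 and -0.73 with JQ1. With scaling by the ERCC counts the values were -0.45 and -0.43 with adjusted p of 0.262 and 0.269, so both calls ended. With ERCC scaling and the replicate number as a block they were -0.43 and -0.43 with adjusted p of 0.0104 and 0.00958 (edgeR), and the ERCC share was highest in replicate 1 and lowest in replicate 3 of each group. Without JQ1 replicate 2 the JQ1 value was -0.29.

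Between RG6146 and JQ1 none of the 3 genes was called. The log2 difference was -0.03 (95% interval -0.21 to 0.16) for Pou2f1, 0.02 (-0.13 to 0.18) for Pou2f2 and -0.05 (-0.25 to 0.15) for Pou2af1, with an adjusted p of 0.999 for each by edgeR. Over all genes 1 of 11002 was called (0.00909%), while 427 had an unadjusted p below 0.05. The Pou2f2 libraries just missed overlapping, at 94.51 CPM in the lowest RG6146 library and 94.49 CPM in the highest JQ1 library, and the libraries of 9.93% of tested genes did not overlap. An interval that spans 0 does not show that the compounds act alike, and the doses were 2.5 µM and 1 µM.

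The falls of the 2 octamer factors were compared within each library, where depth and scaling cancel. The log2 ratio of Pou2f2 to Pou2f1 counts was 1.08, 1.12 and 1.14 in RG6146 libraries, 1.08, 0.95 and 1.16 in JQ1 libraries, and 0.89, 0.94 and 0.73 in DMSO libraries. Every treated library lay above every DMSO library, the closest pair being JQ1 replicate 2 and DMSO replicate 2. The mean ratio was higher than with DMSO by 0.26 with RG6146 and by 0.21 with JQ1, each with p = 0.1 in a two-sided exact permutation test, the smallest p that 3 against 3 libraries allow. RG6146 differed from JQ1 by 0.05 (exact p = 0.6). The log2 ratio of Pou2af1 to Pou2f2, chosen after values had been seen, was 1.87, 1.91 and 1.81 in RG6146 libraries, 2.07, 1.69 and 2.03 in JQ1 libraries, and 0.91, 0.91 and 1.17 in DMSO libraries. Counts of the coactivator gene relative to OCT2 were 3.22 to 4.19 times in treated libraries and 1.87 to 2.25 times in DMSO libraries, with no overlap.

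**Figure D2:**
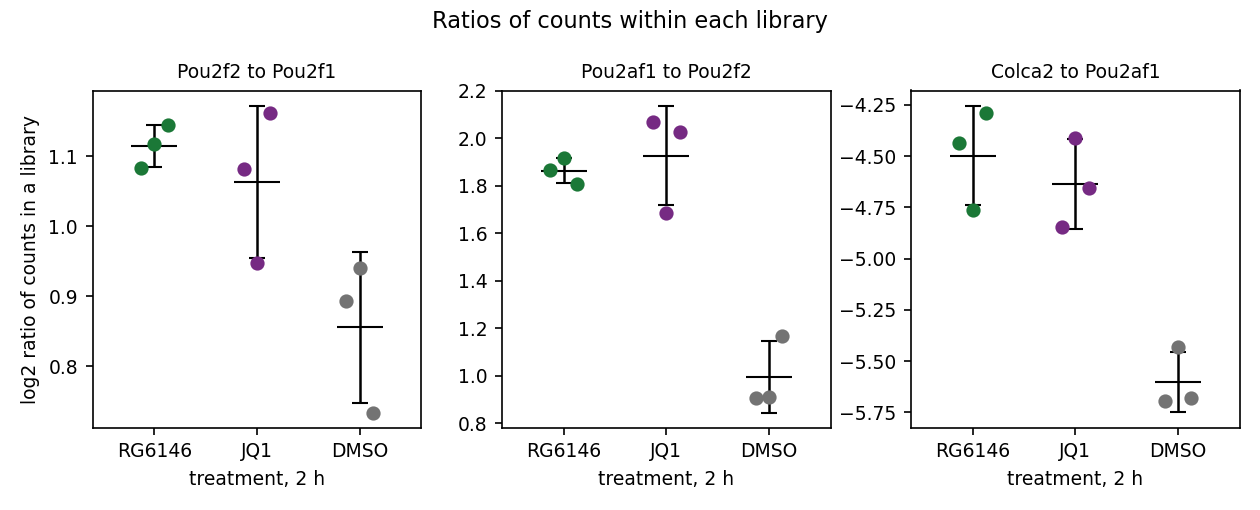
Log2 ratio of counts of 2 genes within each library (y axis, scale not from 0) for RG6146, JQ1 and DMSO libraries (x axis), 1 point per library, with the mean as a bar and the SD as whiskers (n = 3 each). In each panel the treated libraries lie above the DMSO libraries, by 0.26 and 0.21 on average for Pou2f2 to Pou2f1 and by 0.87 and 0.93 for Pou2af1 to Pou2f2.

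The other POU genes gave few counts. Among 15 POU domain genes counted, 5 were tested, and besides Pou2f1 and Pou2f2 none was called. Pou4f1, for the neuronal factor BRN3A, stood at 8.44, 7.34 and 6.82 CPM in RG6146 libraries, at 6.73, 6.90 and 9.15 CPM in JQ1 libraries, and at 3.57, 6.25 and 5.27 CPM in DMSO libraries. Treated and DMSO libraries did not overlap, which also held for 40.9% of tested genes with RG6146 and 42.6% with JQ1. Its log2 fold changes of 0.61 and 0.61 missed the threshold (edgeR, adjusted p 0.0917 and 0.0832). Pou5f1, for the pluripotency factor OCT4, and Pou5f2, a testis-expressed relative, had log2 fold changes between -0.49 and 0.24 that were not called. Pou2f3, for OCT11, the factor of tuft cells, had 0 counts in all 9 libraries, which allows up to 0.23 CPM in RG6146, 0.225 CPM in JQ1 and 0.243 CPM in DMSO libraries from counting error alone (3 counts over each group). The summed level of 4 tuft cell markers was 1.14 to 1.82 CPM in RG6146, 0 to 1.05 CPM in JQ1 and 0.719 to 1.505 CPM in DMSO libraries.

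Pou3f1, for the factor OCT6, had 4, 3 and 2 counts in RG6146 libraries, 5, 2 and 4 in JQ1 libraries, and 0 in each DMSO library. With DMSO set to 3 counts over the group, the level was 2.83-fold that of DMSO with RG6146 and 3.4-fold with JQ1. Counting error of the few treated counts is not included, so these values are not lower bounds. It was under the count filter and so not tested, and without any filter edgeR called it higher (adjusted p 0.0282 with RG6146 and 0.0123 with JQ1).

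Downstream of Pou2af1 lie Colca2 and 1810046K07Rik, whose human counterparts encode small relatives of OBF1 that serve as coactivators of POU2F3 in tuft cells. Colca2 lies 30178 bases past Pou2af1 and is read from the opposite strand. It stood at 16.0, 13.2 and 16.8 CPM in RG6146 libraries, at 13.7, 13.8 and 15.2 CPM in JQ1 libraries, and at 8.65, 10.8 and 9.83 CPM in DMSO libraries. Unlike Pou2af1, Colca2 rose, by 0.66 ± 0.17 with RG6146 and by 0.55 ± 0.17 with JQ1 on the log2 scale (SE, edgeR, adjusted p 0.00739 and 0.0214), against a share of 12.5% and 13.6% of all genes called higher. DESeq2 did not call it (adjusted p 0.0726 and 0.149), nor did ERCC scaling (0.125 and 0.278), and the JQ1 call also ended without JQ1 replicate 3 (adjusted p 0.0749), without DMSO replicate 1 (0.0931) and with scaling by library totals (0.0733). The log2 ratio of Colca2 to Pou2af1 counts, chosen after values had been seen, averaged -4.50 ± 0.24 in RG6146 libraries, -4.64 ± 0.22 in JQ1 libraries and -5.60 ± 0.15 in DMSO libraries (SD, n = 3 each), without overlap of treated and DMSO libraries.

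1810046K07Rik stood at 5.93, 3.29 and 3.64 CPM in RG6146 libraries, at 5.05, 3.33 and 3.92 CPM in JQ1 libraries, and at 1.51, 2.84 and 2.16 CPM in DMSO libraries. The treated libraries lay above the DMSO libraries on 8 to 26 counts each. Groups were apart, in one direction or the other, for 40.9% of tested genes with RG6146 and 42.6% with JQ1. Log2 fold changes of 1.02 and 0.96 were not called (edgeR, adjusted p 0.053 and 0.0646). Without RG6146 replicate 2 or DMSO replicate 2 the RG6146 value passed (adjusted p 0.0496 and 0.0472). Across Colca2 on the other strand lies 2010007H06Rik, which shares 57 exonic bases with it. It was called higher too, by 0.40 with RG6146 and by 0.41 with JQ1 (edgeR, adjusted p 0.0405 and 0.0321), and reads of the 2 genes may not be separated where they overlap. These calls ended in 12 of 17 alternative settings with RG6146 and in 8 of 17 with JQ1.

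**Figure D3:**
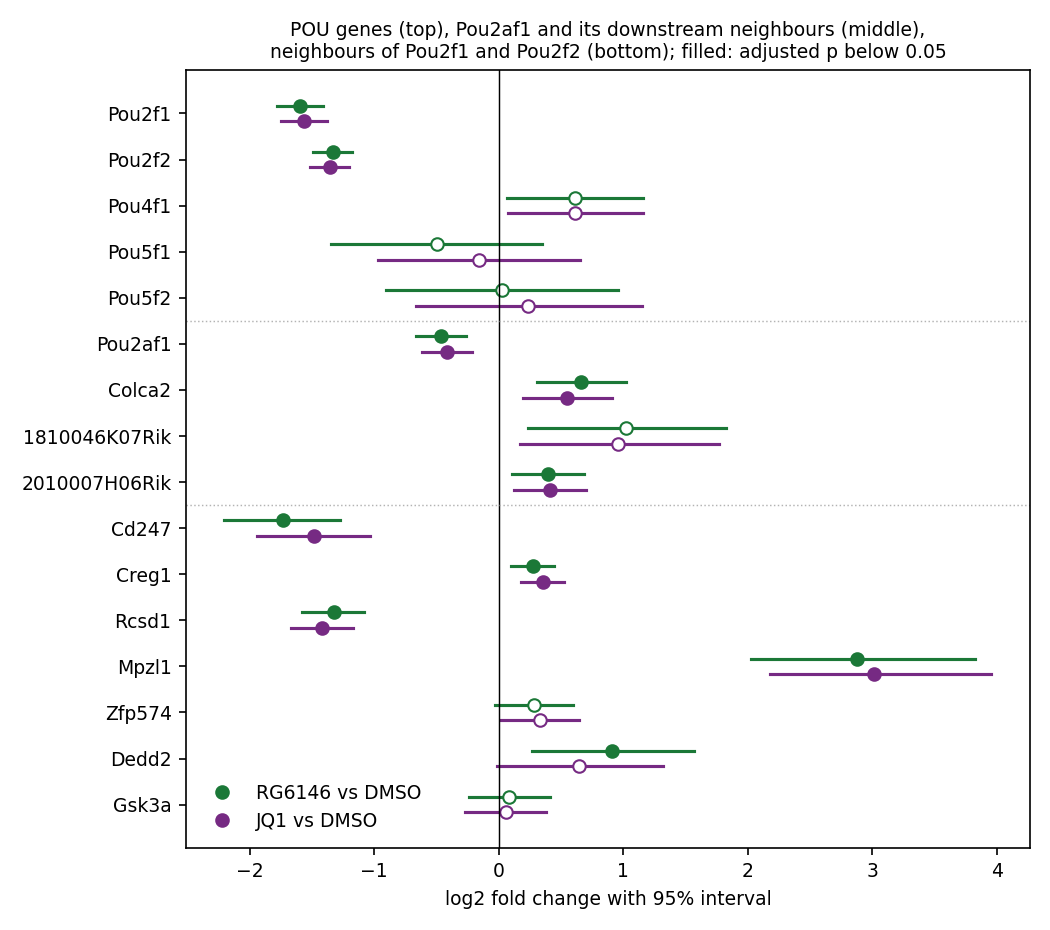
Log2 fold change against DMSO with its 95% interval (x axis) for RG6146 (upper of each pair) and JQ1 (lower), by gene (rows), filled where the edgeR adjusted p was below 0.05. Pou2f1 at -1.59 and -1.56 and Pou2f2 at -1.33 and -1.36 lie far left of the other POU genes, and Pou2af1 at -0.46 and -0.41 and Colca2 at 0.66 and 0.55 lie on opposite sides of 0.

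Promoter windows were searched for the octamer, ATGCAAAT or ATTTGCAT, on both strands. It was found in 570 of 32851 RefSeq windows (1.74%), or for 532 of 27025 genes (1.97%). Stretches of 20 bases to either side are shown for genes that the results turn on, with the octamer in capitals, to let its orientation and surroundings be read. 1810046K07Rik holds 2 octamers, at -86 and -55 relative to its start (chr9:51328946-51329024, reverse strand).
1810046K07Rik: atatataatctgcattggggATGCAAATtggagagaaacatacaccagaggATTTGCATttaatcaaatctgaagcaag
Hist1h2be and Hist1h2bk hold 1 each, at -67 (chr13:23586010-23586057, reverse strand) and at -30 (chr13:22035771-22035818, forward strand).
Hist1h2be: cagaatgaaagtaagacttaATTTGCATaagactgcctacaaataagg
Hist1h2bk: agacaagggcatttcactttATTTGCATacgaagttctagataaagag
H3f3b at -74 (chr11:116024551-116024598, reverse strand), Cnnm4 at -74 (chr1:36471503-36471550, forward strand), Hdac9 at -49 (chr12:34528911-34528958, reverse strand) and Blnk at -130 (chr19:40994324-40994371, reverse strand) follow.
H3f3b: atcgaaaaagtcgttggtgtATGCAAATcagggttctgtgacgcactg
Cnnm4: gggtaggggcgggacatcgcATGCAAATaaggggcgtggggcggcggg
Hdac9: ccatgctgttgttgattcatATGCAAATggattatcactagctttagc
Blnk: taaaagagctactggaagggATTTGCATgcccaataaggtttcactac
A match describes these letters and is not a measured binding site.

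Genes with the octamer moved both ways. Of 11002 tested genes 7627 had a window and 115 of these held the octamer. With RG6146 25 of the 115 were called higher (21.7%) and 19 lower (16.5%), beside 14.0% higher and 14.7% lower among the 7512 genes whose windows lack it. With JQ1 28 were called higher (24.3%) and 18 lower (15.7%), beside 15.1% and 16.9%. The median log2 fold change was 0.06 and 0.10 with the octamer and 0.00 and 0.00 without it. Histone genes made up 10 of the 115, with 2 called higher and 0 lower by each compound, so that among the other 105 genes 21.9% were called higher with RG6146 and 24.8% with JQ1. These shares are descriptions with no test of their difference.

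**Figure D4:**
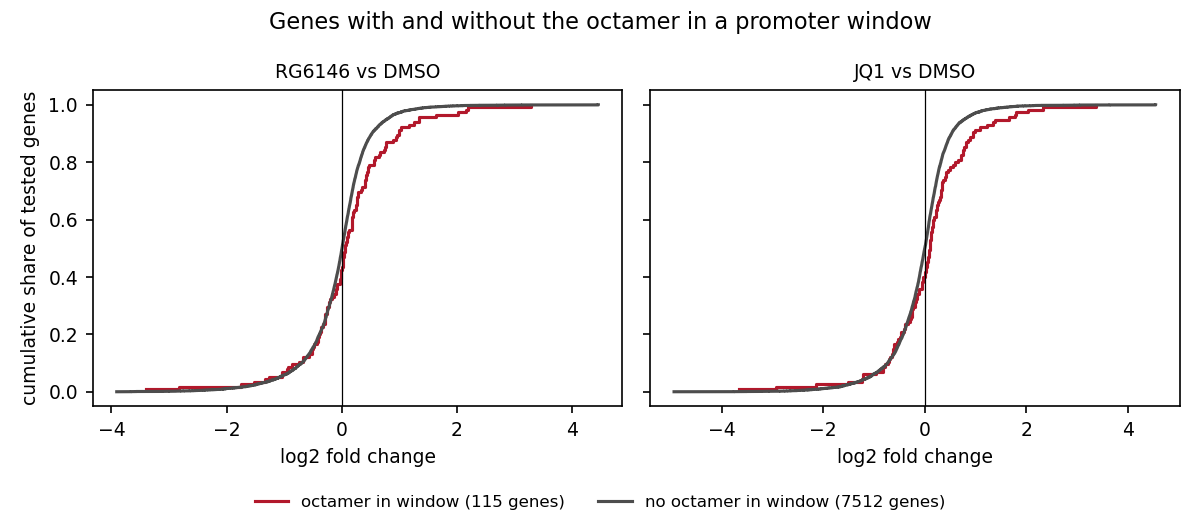
Cumulative share of tested genes (y axis) by log2 fold change (x axis) for RG6146 against DMSO (left) and JQ1 against DMSO (right), for 115 genes with and 7512 without the octamer in a promoter window. The lines run together below 0 and part above it, where the genes with the octamer reach higher values; medians are 0.06 and 0.00 with RG6146 and 0.10 and 0.00 with JQ1.

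The called octamer genes with the smallest p included some of very different function. H3f3b, for histone H3.3, stood at 2798, 2836 and 2610.3 CPM in RG6146 libraries, at 2651, 2878 and 2811 CPM in JQ1 libraries, and at 728, 658 and 641 CPM in DMSO libraries. It rose by 2.02 with RG6146 and by 2.04 with JQ1 on the log2 scale. Cnnm4, for a magnesium transporter, rose by 3.29 ± 0.22 with RG6146 and by 3.37 ± 0.22 with JQ1 on the log2 scale. Zswim6, for a zinc finger SWIM protein, rose by 2.20 and 2.34, and Orai1, the calcium release-activated channel, by 1.34 and 1.35. Hdac9, for a class IIa deacetylase, fell, with log2 fold changes of -2.83 ± 0.25 with RG6146 and -3.67 ± 0.28 with JQ1. Sash3, for a lymphocyte adaptor, fell by 1.74 and 2.14. Blnk, for the B-cell linker that couples the receptor to phospholipase C, was named after its values were seen and not by its p. It fell by 1.03 and 1.22.

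Among 13 B-cell genes known from mice to need OCT2 or OBF1, or to use the octamer, 9 were tested. The search above found no octamer in a promoter window of these 9, and a gene without a window could not be searched. With RG6146 6 fell and 0 rose, and with JQ1 5 fell and 0 rose, beside 13.5% and 15.4% of all genes called lower. The medians were -1.14 and -1.22, beside 0.01 and 0.00 over all genes. This list and the gene lists below were chosen with earlier results of these data known. Their counts beside the shares of all genes are descriptions only. Kcnn4, for an intermediate-conductance potassium channel, stood at 1.82, 1.01 and 0.681 CPM in RG6146 libraries, at 1.89, 4.76 and 1.05 CPM in JQ1 libraries, and at 15.2, 13.4 and 15.6 CPM in DMSO libraries. All treated libraries lay below the DMSO libraries, JQ1 replicate 2 highest among them. It fell by 3.62 ± 0.41 with RG6146 and by 2.50 ± 0.36 with JQ1. Cd22, for an inhibitory coreceptor, fell by 1.68 and 2.04. Cd79b, for a signalling chain of the B-cell receptor, fell by 1.14 and 1.22, and Btk, for the tyrosine kinase downstream of it, by 0.51 and 0.72.

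Cd36, a scavenger receptor gene that OCT2 regulates in mouse B cells, fell by 1.31 and 1.84 at DMSO levels of 3.41 to 4.14 CPM, and its RG6146 call ended in 7 of 16 alternative settings. Cd36 is also a myeloid marker, and the summed level of 11 myeloid markers was 82.8 to 117 CPM in RG6146, 61.4 to 255 CPM in JQ1 and 144 to 676 CPM in DMSO libraries. These markers did not move together: of 7 tested, Cd36 was called lower, Csf1r higher and 5 not called with each compound. Csf1r rose by 0.48 with RG6146 and by 0.59 with JQ1, calls that ended in 7 and 1 of 17 alternative settings. The part of the myeloid markers in the Cd36 result was not tested. The immunoglobulin genes did not move together. Igkc, the kappa light chain constant gene, stood at 49.9, 57.7 and 56.3 CPM in RG6146 libraries, at 66.9, 66.6 and 70.9 CPM in JQ1 libraries, and at 61.9, 83.9 and 92.3 CPM in DMSO libraries. The RG6146 libraries lay below the DMSO libraries, and the JQ1 libraries lay within their range. It fell with RG6146 (log2 fold change -0.54, edgeR, adjusted p 0.00379) and was not called with JQ1 (-0.22, adjusted p 0.202). The difference between the compounds, -0.32, was not called either (adjusted p 0.999). Ighm, the mu heavy chain gene, had log2 fold changes of 0.14 and 0.15, and Spib, for an ETS factor that works with OBF1, had 0.08 and 0.21, none called. Ms4a1, for CD20, had -1.36 and -2.10 (adjusted p 0.162 and 0.0559) on widely spread libraries. With ERCC scaling 3 of the 6 RG6146 calls were left.

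Histone H2B genes, the classic targets of OCT1, gave 9 tested genes, of which 4 rose and 0 fell with each compound, beside 12.5% of all genes called higher with RG6146 and 13.6% with JQ1. The medians were 0.70 and 0.69, beside 0.01 and 0.00 over all genes. Hist1h2bc stood at 46.1, 49.1 and 40.0 CPM in RG6146 libraries, at 40.4, 36.7 and 40.8 CPM in JQ1 libraries, and at 6.02, 4.27 and 3.84 CPM in DMSO libraries. Treated and DMSO libraries did not overlap, and it rose by 3.22 and 3.03 on the log2 scale. Hist2h2be rose by 1.83 and 1.99, Hist1h2be by 0.99 and 0.98 and Hist1h2bf by 1.03 and 1.24, and the RG6146 call of Hist1h2bf ended in 4 of 16 alternative settings. Of 16 H2B genes with a promoter window 7 hold the octamer. Of the tested ones that do, Hist1h2be was among the genes that rose, with the octamer in 1 of its 2 windows. Hist1h2bk had -0.38 and -0.39 (edgeR, adjusted p 0.459 and 0.439). Among the others that rose, Hist1h2bc and Hist2h2be had no window to search, and the window of Hist1h2bf lacks the octamer. Most clustered histone mRNAs end in a stem-loop without a poly(A) tail and are missed by a method primed on that tail, so these counts follow the polyadenylated transcripts. Reads of near-identical H2B copies may be split or dropped.

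Proteins reported to act with OCT1 at H2B promoters in human cells gave 7 tested genes. With RG6146 3 rose and 0 fell and with JQ1 2 rose and 0 fell, beside 12.5% and 13.6% of all genes called higher, and the medians were 0.17 and 0.22. Stip1, for a cochaperone, rose by 0.47 and 0.52, and Hspa8, for the constitutive HSC70 chaperone, by 0.36 and 0.41, and ERCC scaling ended these 4 calls. Npat, the histone gene coactivator of the cell cycle, rose by 0.42 with RG6146 (adjusted p 0.0273) and had 0.25 with JQ1 (adjusted p 0.185), and its call ended in 7 of 17 alternative settings. Gapdh, Ldha, Nme1 and Nme2, whose glycolytic and nucleotide-kinase products were also described in that OCT1 complex, had log2 fold changes between -0.20 and 0.22 and were not called.

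Small nuclear RNA genes use OCT1 through the SNAP complex. Of 11 tested genes for this machinery 3 rose and 1 fell with RG6146 and 2 rose and 1 fell with JQ1, with medians of 0.18 and 0.14. Over all genes 12.5% were called higher and 13.5% lower with RG6146, and 13.6% higher and 15.4% lower with JQ1, so that the JQ1 counts of the list are near the shares of all genes. Snapc1, for a core SNAP complex subunit, stood at 54.0, 49.1 and 61.6 CPM in RG6146 libraries, at 51.8, 61.2 and 52.8 CPM in JQ1 libraries, and at 25.2, 33.8 and 30.0 CPM in DMSO libraries, with no overlap. It rose by 0.90 with each compound. Snapc4, for the subunit that OCT1 contacts, rose by 0.46 with RG6146 (adjusted p 0.0121), a call that ended in 4 of 17 alternative settings, and had 0.34 with JQ1 (adjusted p 0.0557). The partners of the little elongation complex went opposite ways: Ice1 rose by 0.39 and 0.37, calls that ended with ERCC scaling (and the JQ1 call also with scaling by library totals), and Ice2 fell by 1.35 and 1.32.

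SIAH ubiquitin ligases bind OBF1 and send it to the proteasome. Siah1b rose by 0.39 with RG6146 and by 0.54 with JQ1 (edgeR, adjusted p 0.0118 and 0.000941). Siah2 stood at 9.35, 11.4 and 9.77 CPM in RG6146 libraries, at 15.8, 10.9 and 12.8 CPM in JQ1 libraries, and at 7.52, 3.41 and 9.59 CPM in DMSO libraries. The JQ1 libraries lay above the DMSO libraries, which the RG6146 libraries overlapped. It rose with JQ1 by 0.92 (adjusted p 0.0156), a call that ended without JQ1 replicate 1, and had 0.54 with RG6146 (adjusted p 0.164). Siah1a had -0.42 and -0.34, not called. Both Siah1b calls ended with ERCC scaling, the RG6146 call in 4 of 17 alternative settings in all, and RNA counts say nothing of ligase activity or OBF1 protein.

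Of the transcription factors that work beside OCT2 and OBF1 in B cells 11 were tested, and 7 fell and 0 rose with each compound, beside 13.5% of all genes called lower with RG6146 and 15.4% with JQ1. The medians were -0.64 and -0.63, beside 0.01 and 0.00 over all genes. This list too was chosen with earlier results of these data known. Ikzf1, for Ikaros, stood at 79.1, 73.1 and 75.0 CPM in RG6146 libraries, at 75.8, 76.9 and 72.4 CPM in JQ1 libraries, and at 224, 249 and 203 CPM in DMSO libraries. It fell by 1.57 and 1.59 on the log2 scale. Mef2c, for a MADS-box factor, fell by 1.25 and 1.32, and Irf4, for an interferon regulatory factor that forms complexes with PU.1, by 1.10 and 1.06. Spi1, for PU.1, fell by 1.02 and 0.80, and Ebf1, for early B-cell factor, by 0.64 and 0.80. Ets1 fell by 0.52 and 0.58 and Tcf4, for an E protein, by 0.34 and 0.41, and ERCC scaling ended these 4 calls and the RG6146 call of Ebf1. Tcf3, Irf8, Pax5 and Spib were not called, and Spib is also in the list of octamer-dependent B-cell genes above.

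**Figure D5:**
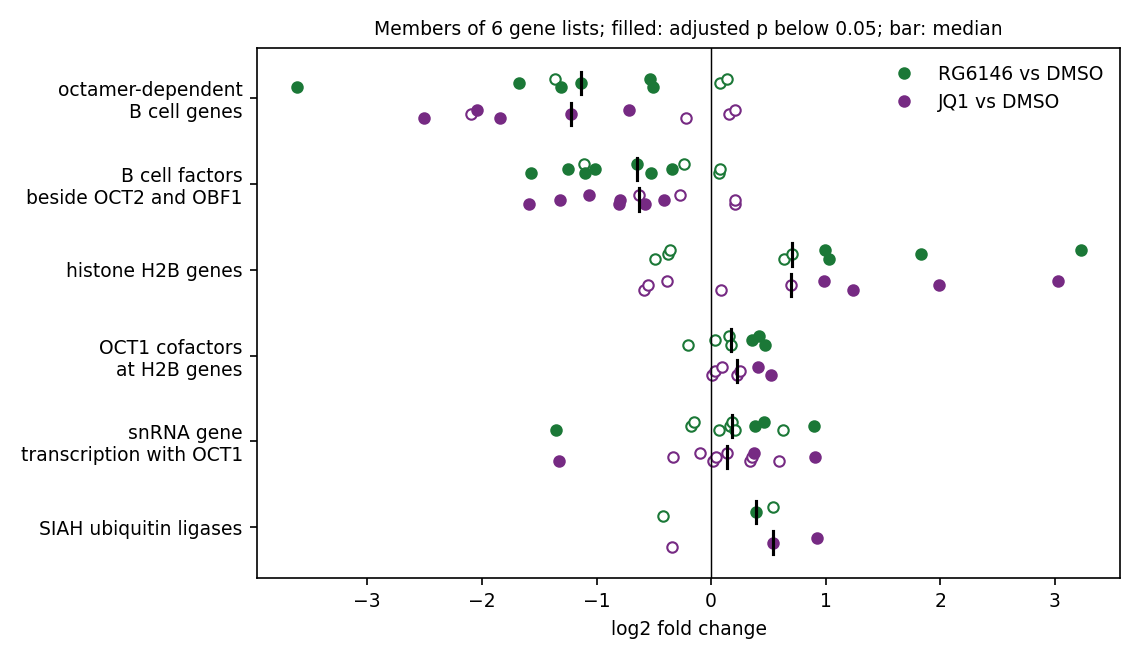
Log2 fold change against DMSO (x axis) of the tested genes of 6 lists (rows), RG6146 above JQ1, filled where the edgeR adjusted p was below 0.05, with the median as a black bar. Octamer-dependent B-cell genes and B-cell factors lie mostly left of 0, with medians of -1.14 and -1.22 and of -0.64 and -0.63. H2B genes lie mostly right of it, with medians of 0.70 and 0.69. The first list is named from earlier work in mice, and no octamer was found in promoter windows of its tested genes.

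The genes most like each member were ranked by Pearson's r of log2 CPM over the 9 libraries, as a description with no test, since treated and DMSO libraries form separate groups that all such values share. For Pou2f1 these were Tmem229b (0.998), Tnrc6a, for a microRNA silencing protein (0.997), 3425401B19Rik (0.994), Pou2f2 (0.994) and Mef2c (0.994). For Pou2f2 they were Ikzf1 (0.998), Adam19, for a metalloproteinase (0.996), Inppl1, for the lipid phosphatase SHIP2 (0.996), Zeb2, for a zinc finger repressor (0.994), and Pou2f1 (0.994). Each gene so named was called lower with both compounds, beside 13.5% of all genes with RG6146 and 15.4% with JQ1. They were picked for likeness to genes that fell, so these calls are not a separate result. Their log2 fold changes ran from -0.59 and -0.61 for Tnrc6a to -2.73 and -2.49 for 3425401B19Rik, and the Tnrc6a calls ended with ERCC scaling.

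For Pou2af1 the likest genes were Cchcr1 (0.989), Dennd1b, for a Rab35 exchange factor (0.985), Mical1, for an actin-oxidising enzyme (0.981), Rab8a, for a vesicle traffic GTPase (0.967), and Tmem126a, for a mitochondrial membrane protein (0.966). Picked in the same way, Dennd1b, Mical1, Rab8a and Tmem126a fell with both compounds, with log2 fold changes between -0.51 and -0.28, while Cchcr1 had -0.86 and -0.69 (adjusted p 0.123 and 0.201). Several of these calls ended in other settings, for Rab8a in 6 of 17 with RG6146 and in 7 of 17 with JQ1. The octamer factors had 286 and 298 genes with r above 0.95, against 19 for Pou2af1, and Pou2af1 itself reached 0.848 with Pou2f1 and 0.864 with Pou2f2.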

How the data were processed

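The authors deposited raw, unscaled read counts by gene. The submitters' processing notes name mm10, HISAT2 2.1.0, featureCounts and cutadapt 1.7. The sources used here do not state the annotation or the strand setting. Of 43629 genes 42548 received a symbol and a position from GENCODE M21, and library sizes leave out the 92 ERCC rows.

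The main test was run in edgeR 4.0.16 under R 4.3.3: filterByExpr with a minimum count of 10, TMM, and a robust quasi-likelihood fit to all 9 libraries with group as its only term. Adjusted p-values (Benjamini-Hochberg) run over all 11002 tested genes. DESeq2 1.42.0 gave an alternative test. Log2 CPM for likeness used a prior count of 2, and ratios within a library added 0.5 to each count. Floors of 3 counts and 95% intervals cover counting or fit error only.

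The members and gene lists were chosen with earlier results of these data known. Genes named were the members, tested POU and OBF1-like genes, overlapping genes and the nearest 3 protein-coding genes on each side, up to 6 called members of each list with the smallest p, the 5 genes most like each member, and up to 6 called genes with an octamer promoter. 2010007H06Rik, Blnk and Hist1h2bk were named after their values were seen. Other alternatives were scaling by library totals or ERCC counts, other filters, only the libraries compared, the replicate number as a block, and each library left out. Replicates differed by more than sampling noise (chi-square per degree of freedom 6.28 to 15.2). Nothing in the labels ties equal replicate numbers together. Correlations of same-numbered deviations lay between -0.0627 and 0.103, and those of different numbers between -0.0893 and 0.074. The ERCC share fell from replicate 1 to replicate 3 in every group. The numbers were not taken to pair the libraries in the main test, and the block was run as an alternative. Promoter windows (250 bases before to 50 after a start) are RefSeq's for GRCm38.p6.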

Additional observations from a re-analysis of the deposited data

How the results depend on the processing

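The falls of Pou2f1 and Pou2f2 with RG6146 and with JQ1 kept their direction and their call in all 17 alternatives, with adjusted p of at most 6.94e-08 and 3e-06 with RG6146 and 5.15e-08 and 7.37e-07 with JQ1. Leaving out 1 library at a time, Pou2f1 lay between -1.61 and -1.57 with RG6146 and between -1.60 and -1.52 with JQ1, Pou2f2 between -1.37 and -1.30 and between -1.40 and -1.32, and Pou2af1 between -0.50 and -0.42 and between -0.49 and -0.29. Scaling by ERCC counts ended the Pou2af1 calls (-0.45, adjusted p 0.262, with RG6146 and -0.43, adjusted p 0.269, with JQ1) and lowered the count of called genes to 1082 with RG6146 and 1196 with JQ1. DESeq2 called 1902 genes for RG6146 against DMSO. Scaling by library totals shifted the median of all genes to -0.10 with RG6146 and -0.13 with JQ1, and the share of calls that were higher to 29.7% and 27.2%, beside 48.0% and 47.0% with TMM. Between RG6146 and JQ1 the count of called genes was 4 with ERCC scaling, 17 with no filter, and 0 with a mean of at least 10 CPM, with only the 6 libraries compared, and with the replicate block, and 0 to 2 without 1 library. With the replicate number as a block the counts against DMSO were 2789 with RG6146 and 3092 with JQ1, and the block ended none of the members' calls.

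The differences between the compounds were near 0 and changed sign: Pou2f1 was 0.0161 with ERCC scaling, 0.0195 with ERCC scaling and the block, and -0.0705 to 0.0160 without 1 library, Pou2af1 -0.173 to 0.0261, the Pou2f2 to Pou2f1 ratio -0.00693 to 0.101, and 1810046K07Rik -0.25 to 0.25, with -0.07 without JQ1 replicate 2 and -0.25 without RG6146 replicate 1. Counts of called genes without 1 library lay between 2239 and 2970 with RG6146 and between 2492 and 3248 with JQ1, and the ratio differences from DMSO between 0.20 and 0.30 and between 0.15 and 0.27. The causes were not tested. With 3 libraries a group from 1 clone, p-values measure the spread between these libraries. The RG6146 value of 1810046K07Rik, at 8 to 26 counts per library, has a 95% interval of 0.24 to 1.82.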
